A study of Mus musculus with 11 samples.

Results

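Contacts pooled from single nuclei were set against contacts of a cell population, both from mouse Th1 cells, a type of CD4+ helper T cell. The comparison takes 2 maps of the 12 in the series, the pooled single-cell map and the ensemble map, on chromosomes 1 to 19. They were chosen by what they are and not by any value. The labels of the ensemble and of the 9 single cells cut with Bgl II describe the same culture. Spleen cells of male C57BL/6 mice were stimulated with 1 µg/ml anti-CD3 for 3 days. CD4+ cells were taken with antibody-coated beads and then grown on in 20 ng/ml IL-2, and Bgl II was the restriction enzyme. The pool has no label of its own. Its name gives Th1 and Bgl, and the rest is taken over from the listed cells within it. The age of the mice and the number of animals are not given in the labels. The 9 Bgl II cells with maps of their own served as a measure of spread between cells. All 170490 of their distinct autosomal contacts were also in the pool, so they are members of it and not a separate check. The sources used here do not say which further cells make up the pool. The ensemble carries the same library protocol as the single cells in the labels, so how its library was made differently, if it was, is not known here. With 1 pooled map and 1 ensemble map there is no replicate of either, no test was run, and the intervals given cover counting error only. They are 95% intervals: Wilson for shares, exact Poisson for ratios of counts to an expectation, and a normal approximation on the log scale for ratios of shares. All of them treat contacts as independent, while several contacts of the pool can come from the same cell.

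Hi-C cuts cross-linked chromatin, joins DNA ends that lie near each other, and lists the joined pairs as contacts. Contacts within a chromosome (cis) thin out with distance along it, and are denser inside stretches called domains than across the boundaries between them. Over longer distances, chromosomes divide into compartment classes whose members contact their own class more than the other, and this also shapes the contacts between chromosomes (trans). In T cells, as in other cells, one class holds mostly open, gene-rich chromatin and the other mostly closed chromatin.

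The pool held 2235291 autosomal contacts, 1790816 in cis and 444475 in trans. The ensemble held 50480667, of which 25251667 were in cis and 25229000 in trans. The pool touched 960359 fragment ends, 71.2% of the ends seen in either map, with a mean of 4.66 contacts per end. The ensemble touched 97.6% of them with a mean of 76.7. Both maps list each pair of ends once, with no number of reads, so a pair joined in many cells counts once. How far this could bear on the values differs with distance. The ensemble had filled 11.3% of the possible pairs of ends under 20 kb, 3.06% of those at 20 to 50 kb and 0.428% at 500 kb to 1 Mb, against 0.00294% in trans. The pool had filled 1.50% under 20 kb and less in every longer class. The shortest cis contact in the pool spanned 15 bp, while the ensemble listed 317912 shorter ones, 1.26% of its cis contacts.

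The maps seldom listed the same pair of ends. Of pool contacts under 20 kb, 13.1% (12.99 to 13.26) were also in the ensemble, 1.16 times the share of end pairs that the ensemble had filled there. The share was 4.38% at 20 to 50 kb, 1.43 times the filled share, and 0.742% at 500 kb to 1 Mb, 1.74 times. From 50 kb to 100 Mb the excess over the filled share lay between 1.58 and 1.94 times in every class. Of 13091 pool contacts over 100 Mb, 0 were in the ensemble, which allows a share of up to 0.0229% (3 counts of the total). In trans 33 of 444475 were listed in both maps, 0.00742% (0.00529 to 0.0104) and 2.53 times the filled share. With so few contacts this ratio is too loose to set trans apart from cis. The filled share counts all possible pairs of ends alike, so these ratios do not allow for differences in coverage between ends.

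Trans contacts made up a smaller part of the pool than of the ensemble. The share was 19.9% (19.8 to 19.9) in the pool and 49.98% (49.96 to 49.99) in the ensemble, a difference of -30.1 points. The 9 cells ranged from 6.86% to 25.4%, with a mean of 17.6% ± 6.58 (SD, n = 9). All 9 lay below the ensemble, and the difference between the maps was larger than the spread between cells. The pool's share lay below the ensemble's on every autosome. In the pool it was lowest on chromosomes 1 and 3 (16.6% and 17.3%) and highest on chromosomes 17 and 19 (24.1% and 27.4%). In the ensemble chromosomes 2 and 1 were lowest (46.8% and 47.4%) and chromosomes 17 and 19 were again highest (53.5% and 56.3%). Short chromosomes had the higher trans shares in both maps, with a Pearson correlation with length of -0.912 in the pool and -0.900 in the ensemble over the 19 chromosomes, and the shares of the 2 maps correlated at 0.820. The pool's share divided by the ensemble's ran from 0.344 on chromosome 3 to 0.488 on chromosome 19.

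The maps also differed in how contact ends were spread over chromosomes. Contact ends per Mb, each relative to the map's autosomal mean, were 1.18 on chromosome 11 in the pool and 1.42 in the ensemble, a ratio of 0.832 and the lowest of the 19. Chromosome 7 followed at 0.886. The ratio was highest on chromosome 3 at 1.18 and chromosome 18 at 1.10. Over the 19 chromosomes the 2 densities correlated at 0.778. Trans values below are therefore given after division by the trans totals of the bins.

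Within chromosomes, the pool was richer in near contacts and poorer in far ones. Contacts under 50 kb made up 20.4% of cis contacts in the pool and 10.4% in the ensemble, and 22.9% ± 2.04 (SD, n = 9) in the cells. Contacts from 50 kb to 1 Mb made up 27.5% and 22.9%. Those over 10 Mb made up 32.8% and 44.6%, a difference of -11.9 points, with 36.6% ± 5.90 in the cells. The near excess was outside the spread of the cells, whose lowest share under 50 kb was 19.7%. The far deficit was less clear-cut from cell to cell: the highest cell had 46.7% of its cis contacts over 10 Mb, above the ensemble.

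By distance class, the pool's share of cis contacts divided by the ensemble's was 1.87 (1.86 to 1.88) under 20 kb and peaked at 2.20 (2.18 to 2.21) at 20 to 50 kb. It then fell from class to class: 1.63 at 50 to 100 kb, 1.33 at 100 to 200 kb and 1.12 at 200 to 500 kb. In each of these 5 classes the ratio was above 1 on 19 of 19 chromosomes. At 500 kb to 1 Mb the maps were close, with a ratio of 0.993 (0.987 to 0.999) and 10 of 19 chromosomes above 1. Beyond that the ratio was below 1 throughout, at 0.935 for 1 to 2 Mb, 0.877 for 2 to 5 Mb, 0.820 for 5 to 10 Mb and 0.785 for 10 to 20 Mb. It was 0.758 at 20 to 50 Mb and 0.666 at 50 to 100 Mb. Every one of the 19 chromosomes was below 1 in each of these 6 classes. Over 100 Mb the ratio was 0.488 (0.480 to 0.497), and it was below 1 on all 14 chromosomes with such contacts in the pool. On a finer scale the pool's density was 2.89 times the ensemble's between 10000 and 12589 bp, its highest, and the curves crossed near 630957 bp, where the ratio went from 1.01 to 0.992.

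**Figure D1:**
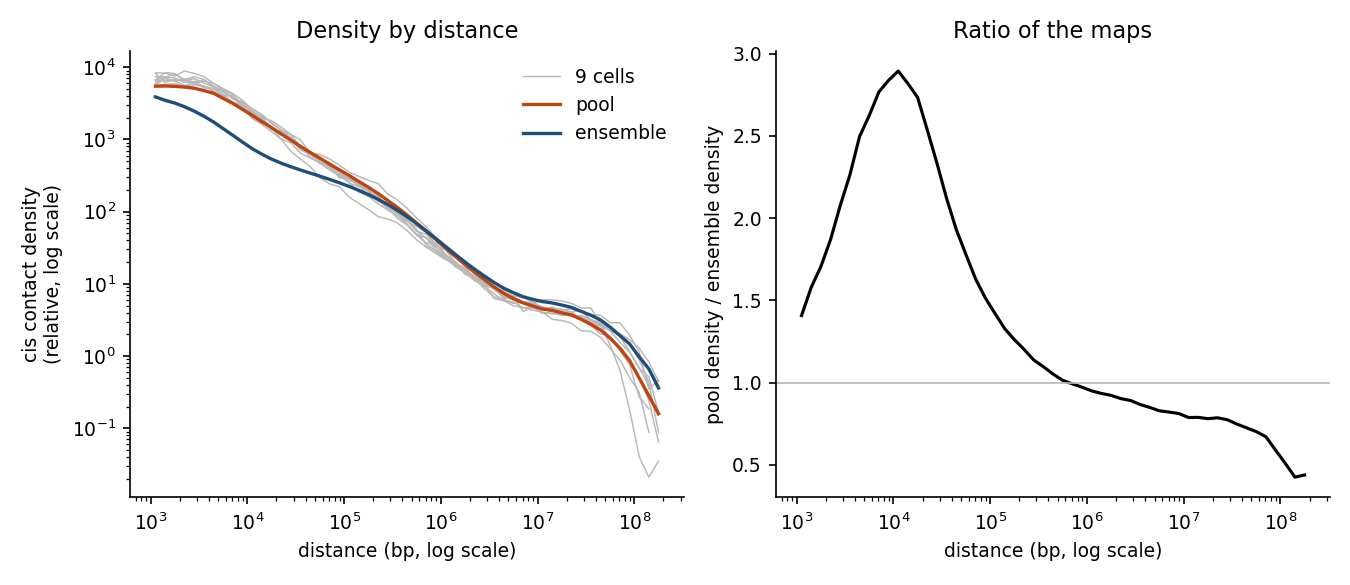
Left, cis contact density per possible position against distance (both axes log) for the pool, the ensemble and the 9 cells; right, the pool's density divided by the ensemble's. The ratio peaks at 2.89 near 10000 bp and passes below 1 near 630957 bp.

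Chromosomes differed in the size of the shift but not in its direction outside the class at the crossing. At 20 to 50 kb the ratio ran from 1.94 on chromosome 17 and 1.96 on chromosome 19 to 2.39 on chromosome 1 and 2.40 on chromosome 13. At 200 to 500 kb chromosomes 17 and 15 were nearest to 1 (1.01 and 1.02) and chromosomes 1 and 13 highest (1.21 and 1.24). For the share over 10 Mb the difference was widest on chromosomes 1 and 13, at -13.4 and -13.2 points, and narrowest on chromosomes 19 and 17, at -8.99 and -7.82 points. The order of chromosomes was not the same in every class: under 20 kb chromosomes 11 and 2 had the highest ratios (2.05 and 1.96), and as a ratio chromosome 19 was the lowest at 5 to 10 Mb and 10 to 20 Mb (0.741 and 0.718). At 50 to 100 Mb chromosome 19, whose length barely reaches into this class, stood lowest at 0.396.

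**Figure D2:**
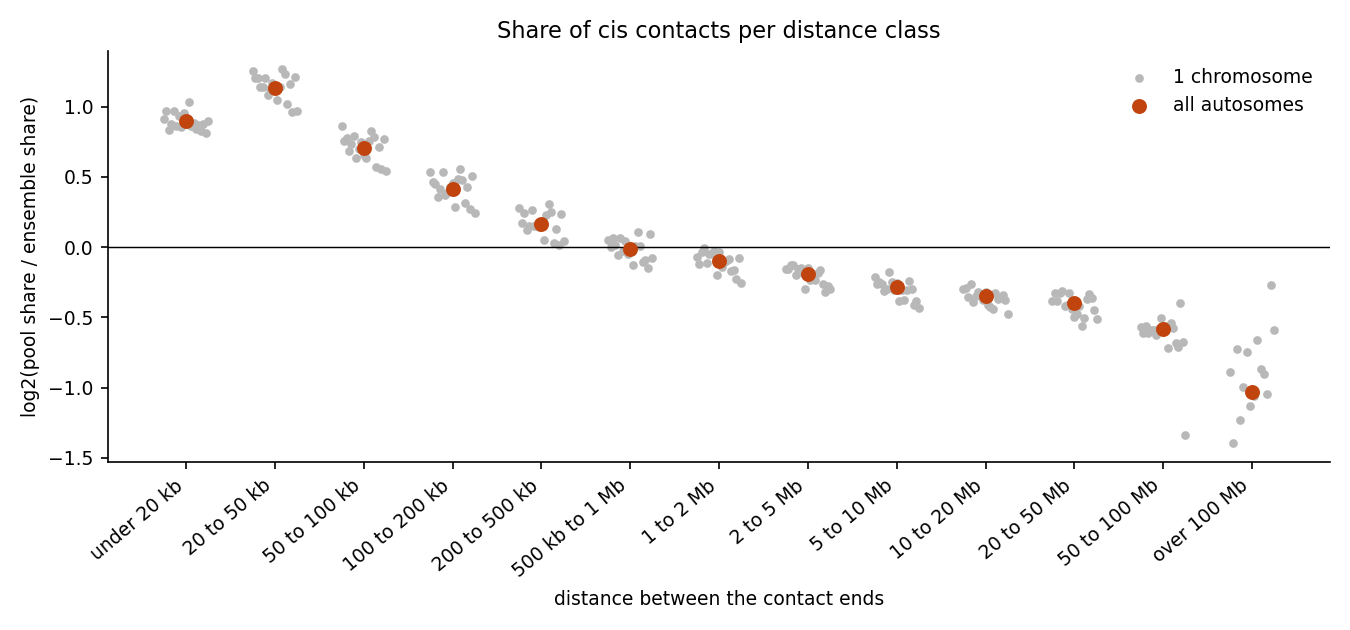
log2 of the pool's share of cis contacts over the ensemble's in 13 distance classes, for all autosomes together (large points) and each chromosome (small points; chromosome 15 over 100 Mb, with 0 pool contacts, is not drawn). Values lie above 0 up to 500 kb on every chromosome and below 0 from 1 Mb on.

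The single cells split the classes further. At 20 to 50 kb all 9 cells had a higher share than the ensemble, between 4.52% and 7.39% against 2.89%. At 200 to 500 kb the pool had 9.13% and the ensemble 8.16%, and only 1 of the 9 cells was above the ensemble, with a mean of 7.64% ± 1.73. From 1 to 10 Mb all 9 cells lay below the ensemble. The pool's excess at 200 to 500 kb was therefore not seen in most of the listed cells, while its excess under 50 kb was seen in all of them.

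Density fell with distance more steeply in the pool. Between 100 kb and 10 Mb the slope on log axes was -1.02 for the pool and -0.904 for the ensemble, with -0.986 ± 0.0902 (SD, n = 9) in the cells. The pool fell more steeply on 19 of 19 chromosomes, with a difference in slope (pool minus ensemble) of -0.0871 on chromosome 15 and -0.0929 on chromosome 7 up to -0.159 on chromosome 18 and -0.167 on chromosome 13. The gap depended on the range. From 10 to 100 kb the slopes were -0.840 and -0.505, and all 9 cells, from -1.13 to -0.865, were steeper than both maps. From 1 to 10 Mb they were -0.909 and -0.828, while the cells averaged -0.795 and 7 of 9 were shallower than the ensemble. From 10 to 50 Mb they were -0.481 and -0.424, while the cells averaged -0.370 ± 0.140 (SD, n = 9) and 6 of 9 were shallower than the ensemble. The difference from 1 to 10 Mb, -0.0806, was smaller in size than the SD of the cells there, 0.108.

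Domain structure called in each map on its own overlapped in part. Boundaries were minima of the insulation score, the log2 mean of balanced contacts across a border within a 500 kb window on 50 kb bins, with a prominence (depth of the minimum below its surroundings) of at least 0.1. Of 45850 borders scored in both maps, 6963 were boundaries in the pool (15.2% of borders) and 3212 in the ensemble (7.01%). Of the ensemble's boundaries, 2291 (71.3%) had a pool boundary within 1 bin, where 44.1% of all borders had one. Of the pool's boundaries, 2353 (33.8%) had an ensemble boundary within 1 bin, where 21.0% of all borders had one. Pool boundaries lay at a median spacing of 300 kb and ensemble boundaries at 650 kb. The scores themselves correlated at 0.810 (Spearman 0.787) over borders, which are not independent of their neighbours.

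The number of calls moved with depth. The median window held 46 contacts in the pool, a counting error of 14.7%, and 442 in the ensemble. When the ensemble was thinned at random to the pool's number of cis contacts it gave 7039 boundaries, against 7041 in the whole pool and 3213 in the whole ensemble. Set against the ensemble contacts left after thinning, the thinned map had a score correlation of 0.768, and 67.2% of the boundaries of the rest had one of its own within 1 bin. The pool's correlation with the ensemble was above that of the thinned map on 18 of 19 chromosomes, all but chromosome 11. The thinned map had 31 contacts in its median window, fewer than the pool, whose cis contacts are nearer. At this depth a boundary present in the ensemble and missed in the pool cannot be told apart from a counting gap.

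Strong boundaries were shared more often. Of the ensemble boundaries, split by prominence into 4 equal groups, 62.5% of the weakest group had a pool boundary within 1 bin and 85.2% of the strongest. Of pool boundaries, split in the same way, 18.0% and 20.3% of the 2 weaker groups had an ensemble partner, no more than the 21.0% of all borders, and 33.7% and 63.1% of the 2 stronger groups. By chromosome the correlation of the scores was lowest on chromosomes 3 and 1 (0.762 and 0.788) and highest on chromosomes 12 and 19 (0.843 and 0.855). The share of ensemble boundaries with a pool partner ran from 66.0% on chromosome 15 and 67.9% on chromosome 5 to 75.6% on chromosome 8 and 76.7% on chromosome 18.

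**Figure D3:**
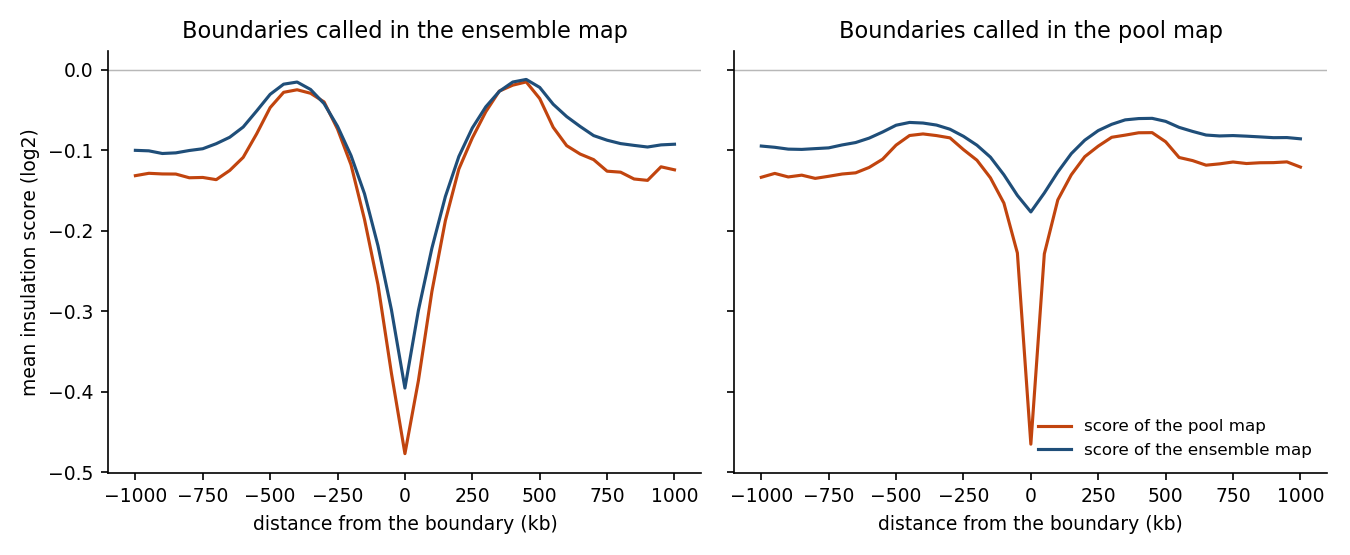
Mean insulation score (log2) of both maps by distance in kb from boundaries called in the ensemble (left) and in the pool (right). At ensemble boundaries the mean score falls to -0.48 in the pool and -0.40 in the ensemble, and at pool boundaries to -0.47 in the pool and -0.18 in the ensemble. The dip in the map that called the boundaries is there by construction.

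The most prominent shared boundary was the same in both maps. It lay at 7.25 Mb of chromosome 10 (mm9), with a prominence of 6.05 in the pool and 4.12 in the ensemble. Within the window, 2 pool contacts and 44 ensemble contacts crossed it. Both counts were below the 5th percentile of all windows, 19 in the pool and 115 in the ensemble. Whether low coverage of this stretch has a part in that was not tested. The boundary at 70.25 Mb of chromosome 12 also stood among the 5 most prominent shared ones of both maps, with 4.28 and 3.14 and with 7 and 185 contacts across it. The other shared ones leading in the pool lay at 98.3 Mb of chromosome 3 (4.63) and at 134.55 and 15.05 Mb of chromosome 5 (4.05 and 4.21). At 15.05 Mb of chromosome 5 the ensemble's partner had a prominence of only 0.12, and 17 of the 20 bins of the window were kept. At 98.3 Mb of chromosome 3 also 17 of the 20 were kept. In the ensemble the others were at 126 Mb of chromosome 5 (3.30), 126.3 Mb of chromosome 10 (3.15) and 46.15 Mb of chromosome 9 (3.02), with prominences of 2.47, 2.53 and 3.40 at the partners in the pool. So the leading shared boundaries of the ensemble were deep in the pool as well. They were picked for having a pool partner, and only between 2 and 22 pool contacts stood behind each.

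Boundaries without a partner within 2 bins can have one no nearer than 150 kb, and any position would often lie this near to a boundary, given median spacings of 300 kb and 650 kb. Among the 5 most prominent of these in the pool, 4 had the nearest ensemble boundary 150 kb away, at 79 and 22.25 Mb of chromosome 10, 25.25 Mb of chromosome 13 and 10.4 Mb of chromosome 16. The fifth, at 91.65 Mb of chromosome 3, had its nearest at 450 kb, and 14 of its 20 window bins were kept. At 22.25 Mb of chromosome 10, 17 of the 20 were kept. Among the 5 in the ensemble, the nearest pool boundary was 150 kb away at 10.25 Mb of chromosome 16, 88.95 Mb of chromosome 11, 77.9 Mb of chromosome 18 and 57.4 Mb of chromosome 3, and 200 kb away at 7.95 Mb of chromosome 15. The region near 10 Mb of chromosome 16 appears in both lists, at 10.4 Mb in the pool (prominence 3.22) and at 10.25 Mb in the ensemble (2.15).

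Contacts respected the other map's boundaries. At distances of 100 to 500 kb, pool contacts were 1.59 times as dense inside the ensemble's domains as across their boundaries, and above 1 on 19 of 19 chromosomes. Ensemble contacts were 1.36 times as dense inside the pool's domains, again on 19 of 19. Each map gave more on its own list, 1.76 for the pool and 1.67 for the ensemble. Those lists were called from the same contacts, counting gaps included, so a higher value there was built in. On boundaries called in the rest of the ensemble, pool contacts gave 1.59 and thinned ensemble contacts 1.63, within the range over chromosomes of either (1.36 to 1.73 and 1.17 to 1.97). The thinned ensemble was the higher of the pair on 10 of 19 chromosomes, so the domain contrast had no common direction.

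Compartment classes were nearly the same in both maps. For every chromosome the correlation matrix of balanced contacts in 1 Mb bins was taken, and bins were classed by the sign of its first eigenvector, and class 1 is the sign with more fragment ends, since no annotation of this build was used here to name the open class. Of 2366 bins, 2192 (92.6%) had the same sign, and 174 (7.35%) the opposite one. The eigenvectors correlated at 0.966, and at 0.956 to 0.985 within single chromosomes. This rests on the balancing: on unbalanced matrices 57.6% of bins had the same sign and the correlation was 0.309. The first eigenvector took up between 20.3% (chromosome 3) and 40.4% (chromosome 11) of the pool's correlation matrix, and between 35.6% and 59.3% of the ensemble's on the same chromosomes. The maps differ in depth, and no value of this share at equal depth is given here.

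Bins that differed did so mainly in 1 direction. Of the 174, 162 were class 1 in the pool and class 2 in the ensemble, and 12 the other way round. Class 1 took 44.7% of the pool's bins and 38.4% of the ensemble's. In the thinned ensemble against its rest, 71 of 2369 bins differed, 51 to class 1 and 20 to class 2, and class 1 took 39.7% in the thinned map. The differing bins had small eigenvector values, with a median size of 0.183 for the pool and 0.282 for the ensemble on a scale where 1 is the root mean square, against 1.07 and 1.10 in bins of the same sign. With all bins split into 4 equal groups by the ensemble's eigenvector size, 164 of the 174 were in the lowest group, 10 in the next and 0 in the upper 2. All bins in the upper 2 groups thus had the same class in both maps.

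The differing bins were scattered: 139 stood alone, 16 runs had 2 bins and 1 had 3. The longest was chr14:67000001-70000000 (mm9), with a mean eigenvector of 0.24 in the pool, -0.47 in the ensemble and -0.26 in the thinned ensemble. Of the 16 runs of 2 bins, the 4 with the largest summed difference between the maps were chr3:53000001-55000000 (0.14 in the pool and -0.63 in the ensemble), chr6:65000001-67000000 (0.27 and -0.41), chr7:139000001-141000000 (0.14 and -0.50) and chr4:94000001-96000000 (0.23 and -0.37). All 5 were class 1 in the pool alone, and in all 5 the pool's value was nearer to 0. Without the 9 listed cells the pool's mean in these runs stayed between 0.12 and 0.24. By chromosome, the share of bins with the same sign was lowest on chromosomes 18 and 7 (85.2% and 88.5%) and highest on chromosomes 9 and 10 (97.5% and 97.6%).

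The pool held the classes farther apart than the ensemble did. With the ensemble's classes and cis contacts over 10 Mb, observed over expected contacts in the pool were 1.52 between class 1 bins, 1.28 between class 2 bins and 0.622 between the classes. In the ensemble they were 1.39, 1.19 and 0.736. The product of both like-class values over the square of the mixed value, called strength here, was 4.99 in the pool and 3.05 in the ensemble. It was higher in the pool on 19 of 19 chromosomes, by a factor of 1.23 on chromosome 19 and 1.28 on chromosome 13 up to 1.79 on chromosome 4 and 1.84 on chromosome 2. Thinning the ensemble left it at 3.05. With the pool's own classes its strength was 4.83, and the ensemble gave 2.70 on those.

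In trans contacts too the pool held the classes farther apart. It gave there 1.30, 1.31 and 0.695, and the ensemble 1.10, 1.16 and 0.876, for a strength of 3.52 against 1.66. All 19 chromosomes were higher in the pool, by factors of 1.83 on chromosome 13 and 1.93 on chromosome 18 up to 2.27 on chromosome 9 and 2.32 on chromosome 4. The trans strength of the pool ranged from 2.63 to 4.27 over chromosomes, and that of the ensemble from 1.44 to 1.97, so the ranges did not overlap. The trans share, 19.9% in the pool against 49.98%, differed between the same 2 maps, and its part in the class contrast was not tested.

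**Figure D4:**
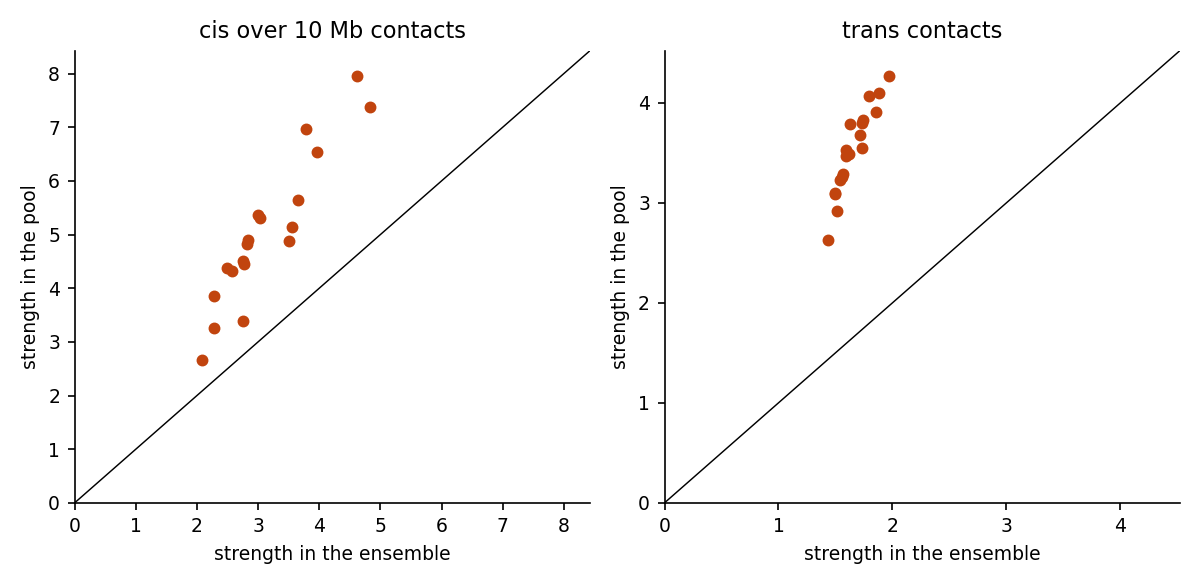
Compartment strength of each of the 19 chromosomes in the pool against the ensemble, for cis contacts over 10 Mb (left) and trans contacts (right), with classes called in the ensemble; the line marks equal values. Every chromosome lies above the line, and in trans the pool's range of 2.63 to 4.27 lies above the ensemble's of 1.44 to 1.97.

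The gap in strength widened with distance along the chromosome. At 2 to 5 Mb it was 3.09 in the pool and 2.43 in the ensemble, and at 10 to 20 Mb 4.45 and 2.93. At 50 to 100 Mb the pool reached 5.37 while the ensemble stayed at 3.07, and over 100 Mb they stood at 5.29 and 2.55. The ensemble's strength was flat or falling beyond 20 Mb, where the pool's rose or held. Agreement of 1 Mb bin pairs, as the correlation of observed over expected contacts, fell with distance from 0.840 at 2 to 5 Mb to 0.721 at 20 to 50 Mb and 0.426 over 100 Mb. The thinned ensemble against its rest gave 0.840, 0.671 and 0.430 in the same classes, so a fall with distance was also present within the ensemble. That map was thinned to the pool's total of cis contacts and not class by class, and contacts over 100 Mb are 1.50% of the ensemble's cis contacts against 0.731% of the pool's.

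Between chromosomes, the maps shared a pattern beyond coverage. Trans counts of 10 Mb bin pairs were divided by the product of the bins' trans totals, scaled so that expected and observed totals were equal. Contacts that follow coverage alone then lie near 1 but not exactly at it, since a bin's trans total leaves out its own chromosome. Pairs of chromosomes with large totals come out somewhat higher, in both maps. Over 30460 bin pairs from 254 bins (4 were left out for low totals) the raw counts correlated at 0.767 (Spearman 0.667). After the division the values correlated at 0.625 (Spearman 0.596). An expectation fitted by iteration, which allows for the chromosome left out, gave 0.624 (Spearman 0.599). The median bin pair held 13 contacts in the pool and 709 in the ensemble, so that a pool value rests on few contacts. In the thinned ensemble against its rest, with 12 contacts in the median pair, raw counts correlated at 0.918 and the divided values at 0.427. Raw counts thus correlated less between pool and ensemble than within the ensemble, and coverage-corrected values more. The corrected correlations do not rank agreement, because counting error weighs on them unequally. The SD of the values was 0.490 in the pool, and 0.392 beyond counting error. In the thinned ensemble it was 0.351, and 0.161 beyond counting error. The pool against the thinned ensemble, both shallow, gave a corrected correlation of 0.282.

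The pool's values were more spread out. Their SD beyond counting error was 0.392 for the pool and 0.159 for the ensemble. Counting error here treats contacts as independent, while 1 cell can give several contacts to the same bin pair. How much this adds to the pool's SD was not tested. In 10 equal groups ordered by the ensemble's value, bin pairs of the lowest group averaged 0.756 in the ensemble and 0.571 in the pool, and those in the highest 1.34 and 1.63. The middle groups were close to 1 in both, at 0.979 and 0.956 in group 5. A line through all bin pairs had a slope of 1.86 for the pool on the ensemble, and of 0.912 for the thinned ensemble on its rest. Pairs that were rich or poor in the ensemble were therefore richer or poorer in the pool, on average.

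By chromosome, the corrected correlation was lowest for bin pairs with an end on chromosomes 18 and 14 (0.538 and 0.553) and highest on chromosomes 2 and 11 (0.685 and 0.740). Dividing each value by that of its chromosome pair left a correlation of 0.624 over all bin pairs. Dividing by the mean for its pair of compartment levels (bins split into 3 equal groups by eigenvector) left 0.584, and leaving out the first and last bins left 0.577 over 22206 pairs. Bins of like class met more often in both maps: pairs within the lowest of the 3 groups averaged 1.23 in the pool and 1.11 in the ensemble, those within the highest 1.18 and 1.07, and those between them 0.800 and 0.914.

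Position along the chromosome showed the same order in both maps. Mouse chromosomes have the centromere at one end, where the first bin lies. First bins met each other at 1.63 (1.57 to 1.69) times the expectation in the pool and 1.32 in the ensemble. Last bins met each other at 1.56 (1.50 to 1.63) and 1.29. First and last bins met at 0.594 (0.567 to 0.621) and 0.780. Inner bins met at 1.00 in both. In each of the 3 pairings of end bins the pool stood farther from 1, by more than its counting interval.

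Whole chromosome pairs agreed less between the pool and the ensemble than within the ensemble at the same depth. Over all pairs of autosomes the values correlated at 0.613 (Spearman 0.536), and 119 pairs lay on the same side of 1, against 0.881 and 140 for the thinned ensemble and its rest. The SD over pairs was 0.0837 in the pool, where counting error at the median pair was 1.995%, and 0.0372 in the ensemble. These values also rest on the product of trans totals, which favours pairs of large chromosomes, and were not refitted by iteration. They correlated with the summed length of the pair at 0.0775 in the pool and 0.287 in the ensemble. How far this shapes the order of pairs below was not tested. The pair of chromosomes 11 and 19 ranked first in both maps, at 1.37 (1.32 to 1.42) in the pool and 1.17 in the ensemble. Chromosomes 17 and 19 were also among the highest 5 of both, at 1.16 and 1.10. The remaining leaders of the ensemble were chromosomes 15 and 19 at 1.11, 11 and 15 at 1.10, and 11 and 17 at 1.10, with pool values of 1.14, 1.13 and 1.05.

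Other pairs that led in the pool were near or below 1 in the ensemble. Chromosomes 4 and 8 had 1.18 in the pool and 1.01 in the ensemble. Without the contacts of the 9 listed cells their pool value was 1.11. Chromosomes 16 and 18 had 1.16 and 1.00, and chromosomes 14 and 15 had 1.16 (1.11 to 1.21) and 0.958, rank 155 from the top in the ensemble. For chromosomes 14 and 15 the value without the 9 cells was also 1.16. At the other end, chromosomes 2 and 19 (0.776 in the pool, 0.926 in the ensemble) and 3 and 19 (0.830 and 0.877) were among the lowest 5 of both maps. Chromosomes 3 and 11 had 0.815 and 0.949, 12 and 14 had 0.842 and 0.990, and 5 and 18 had 0.848 and 0.975. The lowest in the ensemble also included chromosomes 1 and 19 (0.888), 4 and 19 (0.925) and 8 and 19 (0.930), which stood at 0.853, 0.876 and 0.887 in the pool. Chromosome 19 was thus in all 5 of the ensemble's lowest pairs and in 3 of its highest 5.

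**Figure D5:**
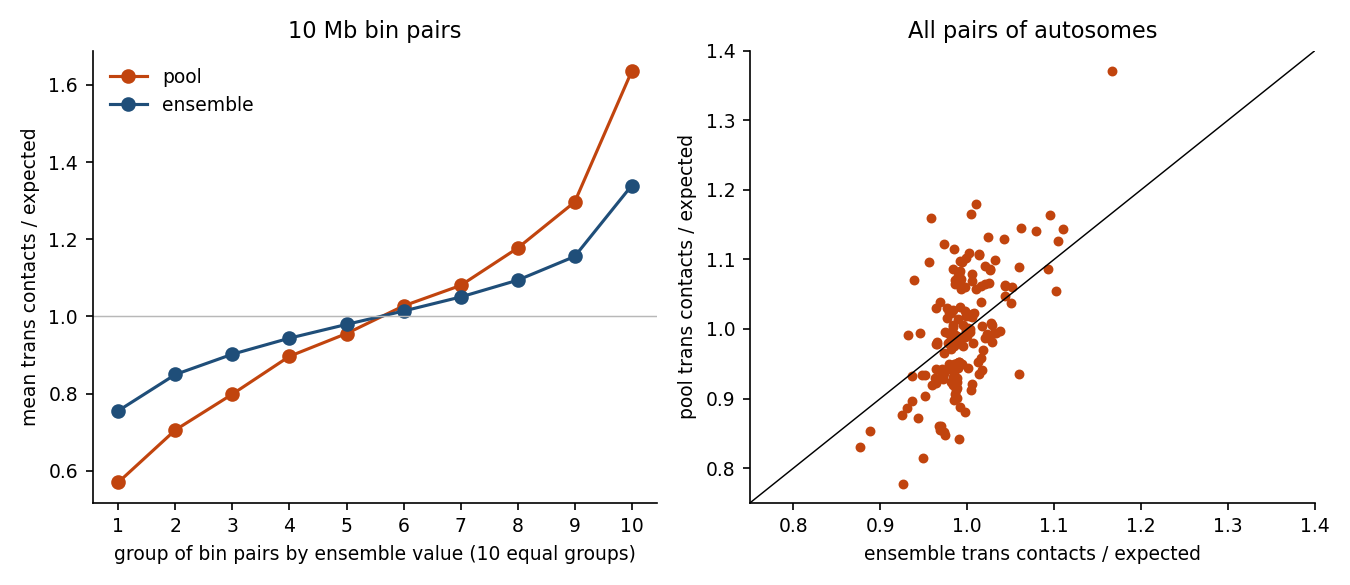
Left, mean trans contacts over expectation in the pool and the ensemble for 10 equal groups of 10 Mb bin pairs ordered by the ensemble's value; right, the same ratio for every pair of autosomes, with a line at equal values. The pool runs from 0.571 to 1.63 over the groups and the ensemble from 0.756 to 1.34; chromosomes 11 and 19 are the point at 1.37 and 1.17.

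The 5 bin pairs highest in the pool joined bins of chromosomes 1, 2 and 3. Among 23058 pairs with an expectation of at least 10 in the pool, the highest was the 10 Mb bin starting at 170 Mb of chromosome 1 with the bin starting at 150 Mb of chromosome 3, with 52 contacts against 11.5 expected. That is 4.52 (3.38 to 5.93) times the expectation, and 1.87 times in the ensemble, where it ranked 11. The bin at 190 Mb of chromosome 1 with the same bin of chromosome 3 ranked 2 in both maps, at 4.18 and 2.38. The bin at 140 Mb of chromosome 2 had 3.97 in the pool with the bin at 150 Mb of chromosome 3, and 3.80 with the bin at 170 Mb of chromosome 1, against 1.86 and 1.67 in the ensemble. The fifth, the bins at 160 Mb of chromosome 1 and 120 Mb of chromosome 3, had 3.71 (2.68 to 5.00) in the pool, while the ensemble had 1.27 and ranked it 1009.

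The ensemble's highest bin pair joined the bin at 20 Mb of chromosome 17 with the first bin of chromosome 19, at 2.41 in the ensemble and 2.99 (2.40 to 3.69) in the pool. The bin at 30 Mb of chromosome 17 with the same first bin had 2.28 and 3.22. The bin at 190 Mb of chromosome 1 had 2.02 with the bin at 140 Mb of chromosome 6 and 1.99 with the bin at 140 Mb of chromosome 3, and 3.53 and 3.67 in the pool. The ensemble's leading 5 all ranked within the first 28 of the pool. Each of these pairs was picked for its height in 1 map, so only the other map's value is independent of the choice.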

How the data were processed

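The deposited files hold genomic coordinates of both ends of each contact, a value outside the usual units (other), per the file headers; no read number is given. Per the submitters' processing notes, coordinates are of mm9; neither aligner nor read filters are given in the sources used here. Pool coordinates were moved by 3 bp to match the ensemble's ends. Measures and named regions were chosen with earlier results of these data known.

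Cis maps were binned at 50 kb and balanced in 50 iterations, without bins whose row sum was below 0.2 of the median. The named regions were the 2 highest and 2 lowest chromosomes of each measure, the 5 most prominent boundaries with and without a partner, the 5 longest runs of opposite eigenvector sign (ties by the summed difference between the maps), and the 5 most extreme chromosome pairs and bin pairs. The ensemble was thinned with a fixed seed to the pool's cis and trans numbers, a choice made after seeing the data. Python 3.11.15, numpy 2.4.6 and scipy 1.17.1 were used, and the steps were checked on simulated maps. Sequences and genes of this build were not used here. The deposited single-cell maps cover 9 cells cut with Bgl II; cell 8, cut with Dpn II, was not analysed here. Alternatives are in the closing section, where a value counts as moved if it changed by over 1 SD (over the 9 cells for shares and slopes, over the 19 chromosomes otherwise).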

Additional observations from a re-analysis of the deposited data

Results flagged for a closer look

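Of 17 sets of values over the 9 cells, 3 had a cell standing apart from the others by the size of its gap to the nearest, which chance gives in about 1 of 20 groups. Cell 10 had the highest share of cis contacts at 200 to 500 kb, 11.7%, and at 1 to 2 Mb, 6.09%. Cell 1 had the highest share at 10 to 20 Mb, 12.96%. The contacts of both cells are in the pool, and leaving out any 1 cell moved none of the 11 results so recomputed by over 1 SD. Cell 1, the largest, gave 29970 of the pool's 2235291 contacts, so a move of that size was hardly possible. The outcome therefore says little about the flagged cells. The class strengths were not recomputed with a cell left out.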

How the results depend on the processing

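Over 172 alternatives for 13 results, 36 values moved by over 1 SD. A change of sign was looked for only in the differences between the maps, and none was seen. These are the trans share, the slope, and the cis shares over 10 Mb and under 1 Mb. The other results, as shares, ratios and correlations, were not checked for a reversal. The boundary shares moved under most settings: for the ensemble's boundaries they were 34.8% at the same bin, 87.6% within 2 bins, 82.6% in 100 kb bins, 67.8% with a 1 Mb window and 66.9% at prominence 0.2, and for the pool's 16.1%, 46.1%, 52.9%, 24.9% and 30.4%. With the ensemble thinned to the pool's contact number they were 50.9% and 56.7%, and thinned to its cis and trans numbers 53.5% and 53.5%. The insulation correlation was 0.579 and 0.648 under these thinnings, 0.862 with a 1 Mb window and 0.718 without balancing. The largest move in SDs was that of the eigenvector correlation, to 0.309 without balancing, where the same-sign share was 57.6%; the correlation was 0.943 and 0.952 under the thinnings, and 0.925 with the eigenvector most correlated with end density, which changed the choice in the ensemble on chromosome 17. Strength, pool over ensemble, was 1.58 in cis and 1.98 in trans with each map's own classes, where the pool's trans strength was 3.29. It rose to 1.85 and 2.28 when each map used the other's classes. The main comparison above instead used the ensemble's classes for both maps. The corrected trans correlation (Pearson, Spearman) was 0.767 and 0.667 on raw counts, 0.428 and 0.400 in 5 Mb bins, 0.775 and 0.750 in 20 Mb bins, and 0.392 and 0.366, then 0.282 and 0.268, under the thinnings. The slope difference was -0.335 at 10 to 100 kb. The causes were not tested, beyond the thinner maps. A division by possible pairs of fragment ends leaves the slope difference as it was by construction.

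Leaving out each of the 9 cells in turn gave -30.2 to -29.9 points for the trans share, -0.120 to -0.118 for the slope, -12.0 to -11.8 and 14.6 to 14.8 points for the shares over 10 Mb and under 1 Mb, 71.0% to 71.5% and 33.5% to 33.9% for the boundaries, 92.5% to 93.0% for the eigenvector sign, and 0.623 to 0.624 for the trans correlation. Each cell is a small part of the pool, so narrow ranges were bound to result. No paired analysis was possible because each map is 1 sample. Depth limits the pool's boundaries and bin pairs: 46 and 13 contacts stood behind the median values.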
